A study of Mus musculus with 6 samples.

Results

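The HOX genes lie in 4 clusters, HOXA, HOXB, HOXC and HOXD, and encode homeodomain transcription factors. They are described here in mouse marrow progenitors with the genes of their cofactors of the TALE class (three-amino-acid-loop extension), MEIS, PBX and PKNOX. The set was taken by gene symbol and held 40 genes, 33 HOX and 7 TALE, of which 39 had a probeset of their own on the array, out of 19938 genes measured. Hoxb8 was the exception, since its probeset is shared with Hoxb7. Cells were Lin-Kit+Sca-1+ bone marrow cells of young adult wild-type FVB/nJ mice, and both groups were cultured in the same medium with serum, mIL-3, mIL-6 and mSCF. The control group received the lentivirus pCAD-IRES-GFP and the HLX group the lentivirus pCAD-IRES-GFP-Hlx, each with 8 µg/ml polybrene, and GFP+ cells were sorted after 2 days. Each group had 3 Affymetrix arrays, and whether the replicates came from separate mice or cultures is not stated in the labels. A p-value here thus covers only the scatter among these arrays, and that scatter may be technical.

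HOX genes are numbered by their position along a cluster. In blood, the genes in the middle of HOXA and the HOXB genes are known for activity in stem cells and early progenitors, with a decline as cells mature. HOX proteins bind DNA with PBX proteins, and MEIS and PKNOX proteins bind PBX. HOXA9 with MEIS1 is best known as a pair that drives acute myeloid leukaemia, and HOXB4 for expanding stem cells in culture. HLX, the product of the gene carried by the vector, is a homeodomain factor from outside these clusters.

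The clusters also hold microRNA genes, shown here because they belong to the same loci as the members and fall into families that repeat between clusters. Their mature 5p strands are given from RefSeq (GRCm38.p6), 5′ to 3′, with the seed, bases 2 to 8, in capitals. Mir10a lies in HOXB and Mir10b in HOXD.
mmu-miR-10a-5p: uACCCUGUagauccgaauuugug
mmu-miR-10b-5p: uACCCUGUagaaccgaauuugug
mmu-miR-196a-5p: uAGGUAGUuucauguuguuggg
mmu-miR-196b-5p: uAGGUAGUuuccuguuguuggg
The first pair shares the seed ACCCUGU, and the second pair shares the seed AGGUAGU. Counted from the 5′ end, miR-10b-5p differs from miR-10a-5p by U12A, and miR-196b-5p differs from miR-196a-5p by A12C. Mir196a-1 lies in HOXB, Mir196a-2 in HOXC and Mir196b in HOXA.

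Upstream sequences of members were read from the RefSeq promoter table by symbol, which matched 23 of the 39 genes with 24 entries. The 250 bases before the start are shown for Hoxa7, Hoxd9 and Hoxd13, whose arrays did not overlap between the vectors, and for Hoxa9, the neighbour of Hoxa7 in the cluster. Each is written 5′ to 3′ on the gene's strand in GRCm38.p6, with matches to the motifs in capitals.
Hoxa7 (chr6:52218574-52218823, - strand): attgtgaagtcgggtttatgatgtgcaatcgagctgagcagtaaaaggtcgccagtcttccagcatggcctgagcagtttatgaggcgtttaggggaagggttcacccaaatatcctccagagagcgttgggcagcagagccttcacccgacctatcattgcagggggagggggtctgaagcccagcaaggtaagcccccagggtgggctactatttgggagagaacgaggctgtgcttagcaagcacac
Hoxa9 (chr6:52227371-52227620, - strand): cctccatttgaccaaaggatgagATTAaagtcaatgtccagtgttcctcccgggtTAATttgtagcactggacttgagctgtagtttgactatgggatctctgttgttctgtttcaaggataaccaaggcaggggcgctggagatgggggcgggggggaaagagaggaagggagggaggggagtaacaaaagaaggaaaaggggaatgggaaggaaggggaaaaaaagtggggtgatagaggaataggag
Hoxd9 (chr2:74697513-74697762, + strand): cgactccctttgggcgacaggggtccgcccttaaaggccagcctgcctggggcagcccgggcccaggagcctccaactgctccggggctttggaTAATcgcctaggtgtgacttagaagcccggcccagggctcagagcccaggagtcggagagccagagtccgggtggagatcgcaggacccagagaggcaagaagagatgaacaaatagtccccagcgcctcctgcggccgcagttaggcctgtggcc
Hoxd13 (chr2:74667975-74668224, + strand): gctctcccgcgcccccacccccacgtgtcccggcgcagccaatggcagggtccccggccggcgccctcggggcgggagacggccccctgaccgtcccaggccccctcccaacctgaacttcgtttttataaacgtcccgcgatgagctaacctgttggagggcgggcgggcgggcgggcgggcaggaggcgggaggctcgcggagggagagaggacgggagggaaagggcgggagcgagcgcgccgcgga
Searched on both strands were TAAT, a core that homeodomains bind, TGATNNAT, a pattern of joint HOX and PBX sites, and TGACAG, a pattern of MEIS and PKNOX sites. A TAAT match can overlap a TGATNNAT match. Hoxa9 held 2 matches to TAAT and Hoxd9 held 1, while Hoxa7 and Hoxd13 held 0 matches to each of the 3 motifs in this window. Among the 23 members with an entry, 14 held TAAT, 2 held TGATNNAT and 2 held TGACAG. Over all 32851 promoter entries the shares were 54.9%, 7.68% and 15.9%. The G and C content of the member windows ran from 40.4% to 80.0% with a median of 59.4%, against a median of 52.4% over all entries.

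The arrays were alike, with medians over all 35556 probesets of 6.32 to 6.40 on the log2 scale and pairwise correlations over 19938 genes of 0.980 to 0.987. The values are log2 expression levels, so that a difference of 1 is a doubling. The vector's own gene, Hlx, was 7.75-fold higher on the HLX arrays, at 6.99, 7.29 and 7.62 on the control arrays and 10.75, 9.74 and 10.28 on the HLX arrays (exact permutation test, 2-sided, p = 0.1, the smallest that 3 against 3 arrays allow). Its difference was 2.95 ± 0.267 (SE, n = 3 per group; limma adjusted p = 0.0782). Of the 2 genes that name the sorted fraction, Kit was at 9.20 to 9.59, and Ly6a, the gene of Sca-1, was not analysed here. Of 7 measured markers of stem cells and progenitors, 6 lay above the background level defined next, from Procr with a mean of 6.86 to Cd34 with 11.12, and Slamf1 lay below it with 5.23. The 2 B cell, 2 NK cell and 3 mast cell markers were on average below that level. The 2 erythroid and 3 megakaryocyte markers were above it. So were 2 of 4 T cell markers, 2 of 6 of granulocytes and monocytes, and 3 of 6 of stroma, endothelium and osteoblasts.

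The table holds no detection call, so a background level was set at 6.21 log2 units. It is the 95th percentile of 1231 genes of olfactory, vomeronasal and taste receptors, whose transcripts marrow progenitors are not known to carry. A gene is called above it by its mean over the 6 arrays. It is a low bar, since 12 of 28 markers of other cell types also exceeded it, among them the collagen gene Col1a1 at 7.04 to 7.51. At the 99th percentile, 6.85 log2 units, 4 of those 28 markers remained. A level depends on the probes as well as on the transcript, so genes are set against these bars and not ranked against each other. In bulk samples such as these, fewer cells with a transcript and less transcript per cell cannot be told apart.

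Of the 39 genes, 15 exceeded the background level, where 59.3% of all genes did, and the pattern differed by cluster. HOXA held a run of 6 neighbouring measured genes above it, Hoxa4, Hoxa5, Hoxa6, Hoxa7, Hoxa9 and Hoxa10, with 4 genes below it at the ends of the cluster. HOXB had 4 of 9 above, Hoxb1, Hoxb3, Hoxb4 and Hoxb7, which were not a run of neighbours. HOXC had 1 of 6, Hoxc9, and HOXD had 0 of 7. Of the TALE genes 4 of 7 were above, Meis1, Meis3, Pbx2 and Pknox1. The 2 genes just inside were Hoxc9 with a mean of 6.33 and Hoxa6 with 6.59, and the 2 just outside were Hoxd9 with 6.11 and Hoxb9 with 6.05.

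**Figure D1:**
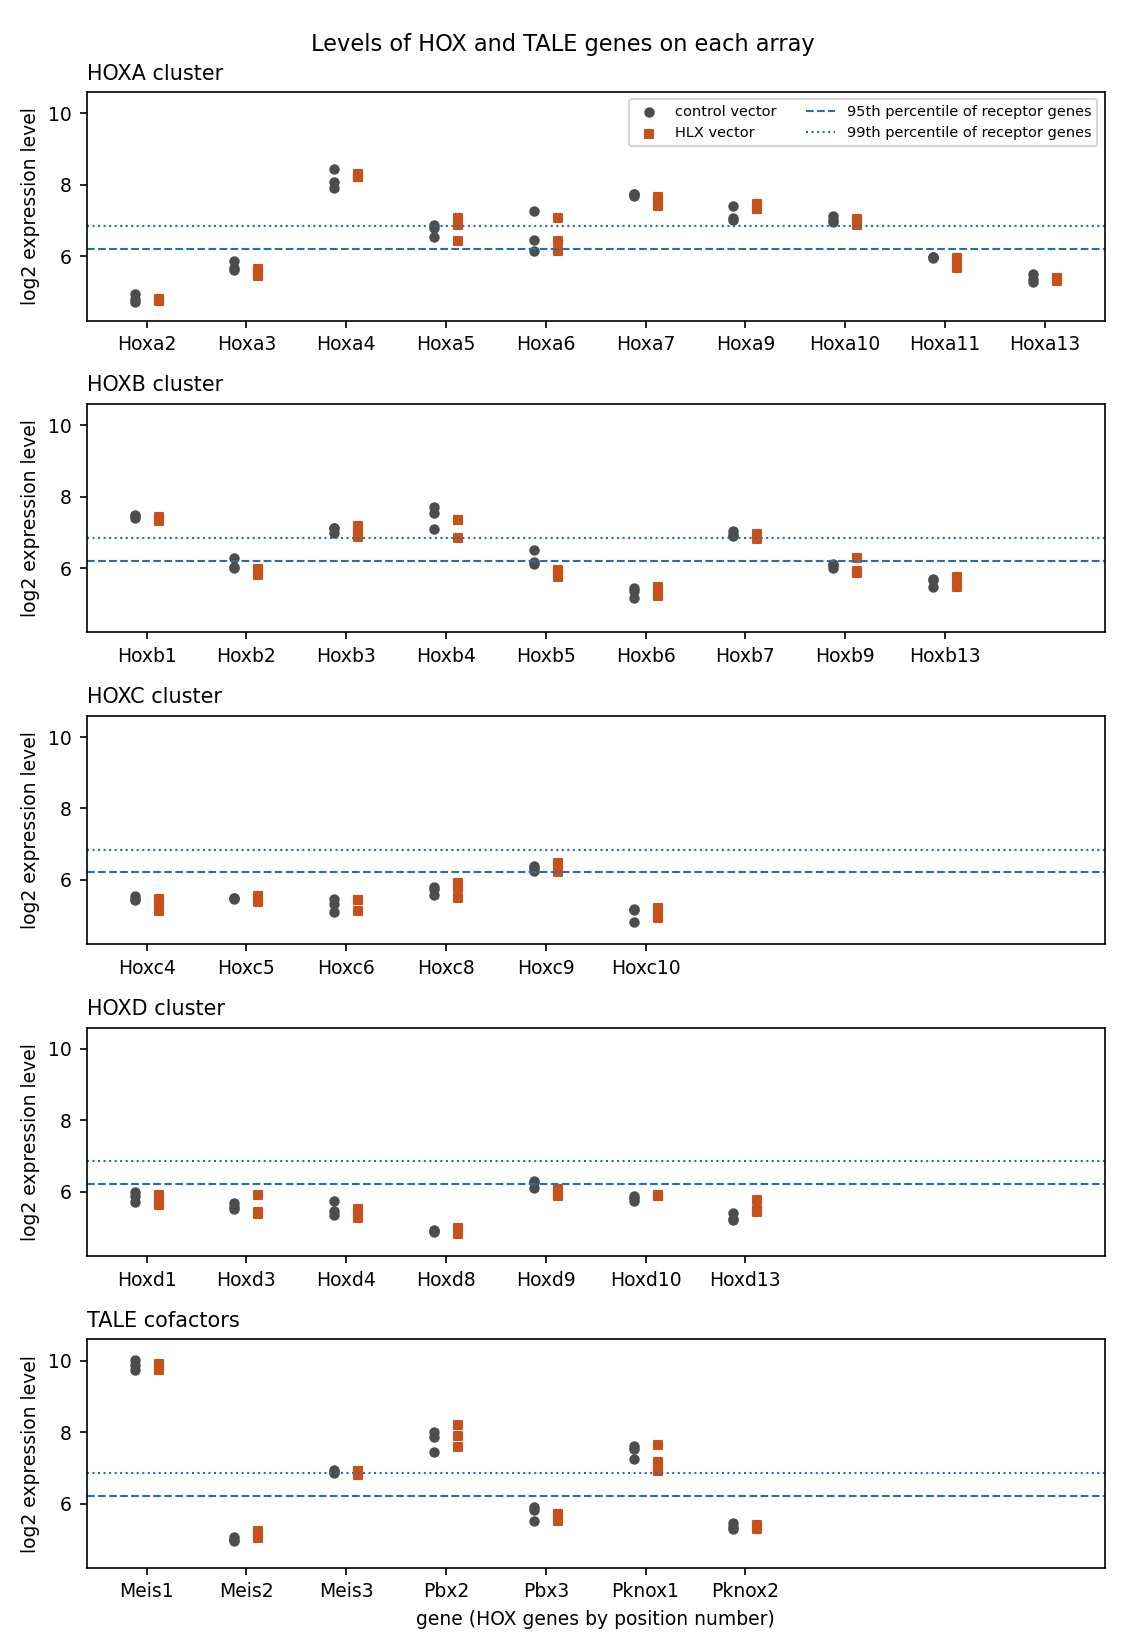
Log2 expression level (vertical axis) of 39 HOX and TALE genes (horizontal axis, 1 panel per cluster) on 3 control vector arrays (grey circles) and 3 HLX vector arrays (orange squares). The dashed line at 6.21 and the dotted line at 6.85 are the 95th and 99th percentiles of the receptor genes; the middle of HOXA, Hoxb1, Hoxb3, Hoxb4, Hoxb7 and 4 TALE genes lie above the dashed line.

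At the 99th percentile, which 43.5% of all genes exceeded, 12 members remained, namely Hoxa4, Hoxa7, Hoxa9, Hoxa10, Hoxb1, Hoxb3, Hoxb4, Hoxb7, Meis1, Meis3, Pbx2 and Pknox1. At the 90th percentile, 5.83, there were 21. The genes gained there were Hoxa11, Hoxb2, Hoxb5, Hoxb9, Hoxd9 and Hoxd10. With means over the control arrays alone 17 members were above the 95th percentile, and over the HLX arrays alone 15, a check added after the data were seen.

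Within HOXA, the difference between vectors was small against the spread of the arrays for most of the run above background. Hoxa4 stood at 7.91, 8.43 and 8.09 on the control arrays and at 8.31, 8.21 and 8.22 on the HLX arrays. The HLX values lay inside the control range. Hoxa5, which favours myeloid over erythroid fates in progenitors, was at 6.53, 6.79 and 6.87 with control and at 6.43, 6.87 and 7.06 with HLX. Its HLX values spread wider than its control values, on both sides of them. Hoxa6 was the most variable of the set, at 6.46, 7.27 and 6.14 with control and 6.44, 6.15 and 7.07 with HLX. Control replicate 2 and HLX replicate 3 were high and the other 4 arrays low, so the groups overlapped over nearly their whole range of 1.13 log2 units.

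Hoxa7 was at 7.75, 7.75 and 7.69 on the control arrays and at 7.65, 7.41 and 7.56 on the HLX arrays. All 3 HLX arrays lay below all 3 control arrays. The difference was -0.19 ± 0.0994 (SE, n = 3 per group; limma unadjusted p = 0.0938, adjusted p = 1), which is 1.14-fold lower with HLX. Hoxa9, the HOX gene with the largest role in leukaemia, was at 7.40, 7.02 and 7.07 with control and at 7.32, 7.31 and 7.47 with HLX. Control replicate 1 overlapped the HLX arrays, and the difference of 0.20 had a 95% interval from limma of -0.09 to 0.50. Hoxa10, the next gene in the cluster, was at 7.12, 7.01 and 6.95 with control and 7.05, 6.87 and 7.01 with HLX, and the groups overlapped. The 4 HOXA genes below the background level, Hoxa2, Hoxa3, Hoxa11 and Hoxa13, had differences of -0.18 to -0.02.

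HOXB was the cluster with most members below 0, 8 of 9, with a median difference of -0.075 log2 units. Over all genes 52.5% were below 0 and the median was -0.00779, and over the 1231 receptor genes 58.4% and -0.023. The mean level of the 9 HOXB genes was 6.40, 6.47 and 6.55 on the control arrays and 6.33, 6.29 and 6.43 on the HLX arrays. HLX replicate 3 thus lay above control replicate 1, and the groups overlapped. Hoxb5, whose expression marks long-term stem cells in mouse marrow, had the largest difference of the 39 genes. Its levels were 6.16, 6.10 and 6.50 on the control arrays and 5.80, 5.95 and 5.75 on the HLX arrays. Every HLX array lay below every control array, and only control replicate 3 exceeded the background level. The difference was -0.42 ± 0.131 (SE, n = 3 per group), or 1.34-fold lower with HLX, with a limma unadjusted p of 0.0140 and a 95% interval of -0.73 to -0.11. Adjusted over all 19938 genes the p was 0.932, so Hoxb5 did not pass, and over the alternatives the adjusted p ran from 0.749 to 1. With an array left out the difference ran from -0.50 without control replicate 2 to -0.30 without control replicate 3, the array on which Hoxb5 was highest.

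Hoxb2 was at 5.99, 6.04 and 6.27 with control and 5.81, 5.97 and 5.94 with HLX. These arrays did not overlap either, with a gap between the groups that was narrow against the spread within them. Its difference was -0.19 ± 0.112 (SE, n = 3 per group; limma unadjusted p = 0.128, adjusted p = 1). Hoxb4 was at 7.10, 7.70 and 7.55 with control and 7.36, 6.83 and 7.35 with HLX. Its difference of -0.27 was the largest in size among genes above background, but control replicate 1 lay below 2 of the HLX arrays and the 95% interval was -0.74 to 0.20. In Hoxb1 the levels were 7.39, 7.47 and 7.49 with control and 7.40, 7.42 and 7.31 with HLX. In Hoxb3 they were 7.11, 6.99 and 7.11 against 6.86, 7.05 and 7.19, and in Hoxb7 6.92, 7.04 and 6.90 against 6.84, 6.81 and 6.96. All 3 genes overlapped between the vectors, with differences of -0.08, -0.03 and -0.08. Hoxb6 (0.01), Hoxb9 (-0.05) and Hoxb13 (-0.04), below the background level, lay near 0. The probeset shared by Hoxb8 and Hoxb7 was at 4.46 to 4.81 over the 6 arrays and is assigned to neither gene.

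HOXC and HOXD gave signals near or below the background level, where this type of normalization compresses differences. Hoxc9 was at 6.24, 6.40 and 6.32 with control and 6.46, 6.22 and 6.38 with HLX, and the groups overlapped. The other 5 HOXC genes had means of 5.05 to 5.72 and differences of -0.15 to 0.05. Of the HOXD genes, Hoxd9 was at 6.30, 6.11 and 6.28 with control and 5.89, 6.03 and 6.07 with HLX, without overlap. The difference was -0.23 ± 0.103 (SE, n = 3 per group; limma unadjusted p = 0.0562, adjusted p = 1). Hoxd13, at the far end of the cluster and known for limb and genital patterning, differed in the other direction, at 5.21, 5.40 and 5.23 with control and 5.49, 5.42 and 5.77 with HLX. Its difference was 0.28 ± 0.123 (SE, n = 3 per group; limma unadjusted p = 0.0573, adjusted p = 1), and every array lay below the background level.

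**Figure D2:**
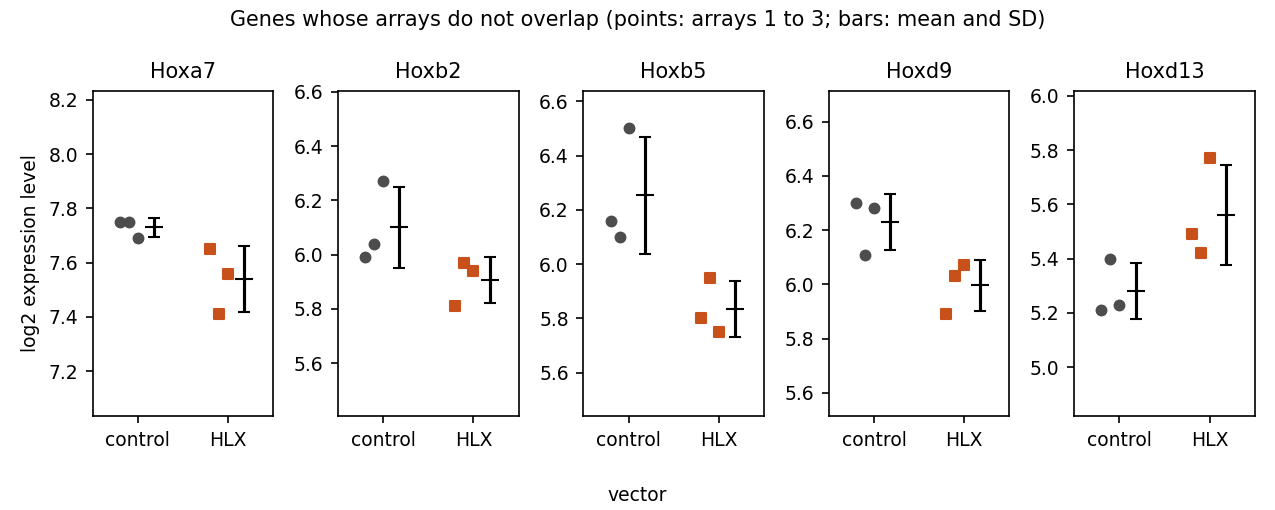
Log2 expression level (vertical axis) of the 5 genes whose control arrays (grey circles) and HLX arrays (orange squares) did not overlap, with the mean and SD of 3 arrays as black bars; each panel spans 1.2 log2 units on its own scale. Hoxa7, Hoxb2, Hoxb5 and Hoxd9 were lower with HLX and Hoxd13 higher, and Hoxa7 alone lies above the background level of 6.21.

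Among the TALE genes, Meis1 had a clear signal and little difference between vectors. MEIS1 is the cofactor of HOXA9 in stem cells and leukaemia, and its gene was at 10.03, 9.73 and 9.89 with control and 9.91, 9.73 and 9.76 with HLX. The 95% interval of its difference, -0.35 to 0.19, leaves out a change of 1.5-fold in either direction. Meis3, a relative of MEIS1, was at 6.95, 6.85 and 6.89 against 6.91, 6.79 and 6.90, with an interval of -0.24 to 0.18. Pbx2, a DNA-binding partner of HOX proteins, was at 8.00, 7.44 and 7.86 with control and 7.88, 8.21 and 7.58 with HLX. Pknox1, which competes with MEIS proteins for PBX, was at 7.52, 7.26 and 7.60 with control and 7.17, 7.64 and 6.91 with HLX. The arrays of both genes spread over more than 0.7 log2 units and overlapped, so intervals were wide, -0.35 to 0.59 for Pbx2 and -0.67 to 0.24 for Pknox1. Meis2, Pbx3 and Pknox2 lay below the background level, with differences of -0.09 to 0.11.

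Counted over the set, 1 of 39 genes had a limma unadjusted p under 0.05, Hoxb5, where 4.8% of all genes did, 2.36% lower and 2.44% higher. With an adjusted p under 0.05 there were 0 members, against 0% of all genes. The groups did not overlap in 5 members, 4 lower and 1 higher, against 9.19% of all genes, 4.85% lower and 4.34% higher. Below 0 were 26 of the 39, with a median difference of -0.040, against 52.5% and -0.00779 for all genes. Among the 1231 receptor genes that set the background level, 58.4% were below 0, with a median of -0.023. With an array left out, the members below 0 numbered from 20, without HLX replicate 2, to 30, without control replicate 1 or HLX replicate 3. The median over all genes moved in the same direction, to 0.008, -0.018 and -0.029 in that order. By cluster the median difference was -0.048 for HOXA (10 genes), -0.075 for HOXB (9), 0.00693 for HOXC (6), -0.021 for HOXD (7) and -0.031 for TALE (7). With an array left out these medians ran from -0.076 to -0.009 for HOXA (nearest 0 without control replicate 2), -0.125 to -0.054 for HOXB and -0.056 to -0.006 for TALE (nearest 0 without control replicate 1). Those of HOXC, -0.031 to 0.077, and HOXD, -0.132 to 0.061, took both signs, and the 6 HOXA genes above background had a median of 0.002. In 26 of the 39 the difference was smaller than the gene's own SD between arrays of a vector, as it was in 14472 of all 19938 genes. Without control replicate 1, HLX replicate 2 or HLX replicate 3 the groups did not overlap in 10, 8 and 11 members, but then 20.2%, 18.4% and 24.1% of all genes also did not overlap. Members with an unadjusted p under 0.05 numbered 3 without HLX replicate 2, and 2 without control replicate 1 or control replicate 2, where 4.7%, 5.27% and 4.04% of all genes had one.

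**Figure D3:**
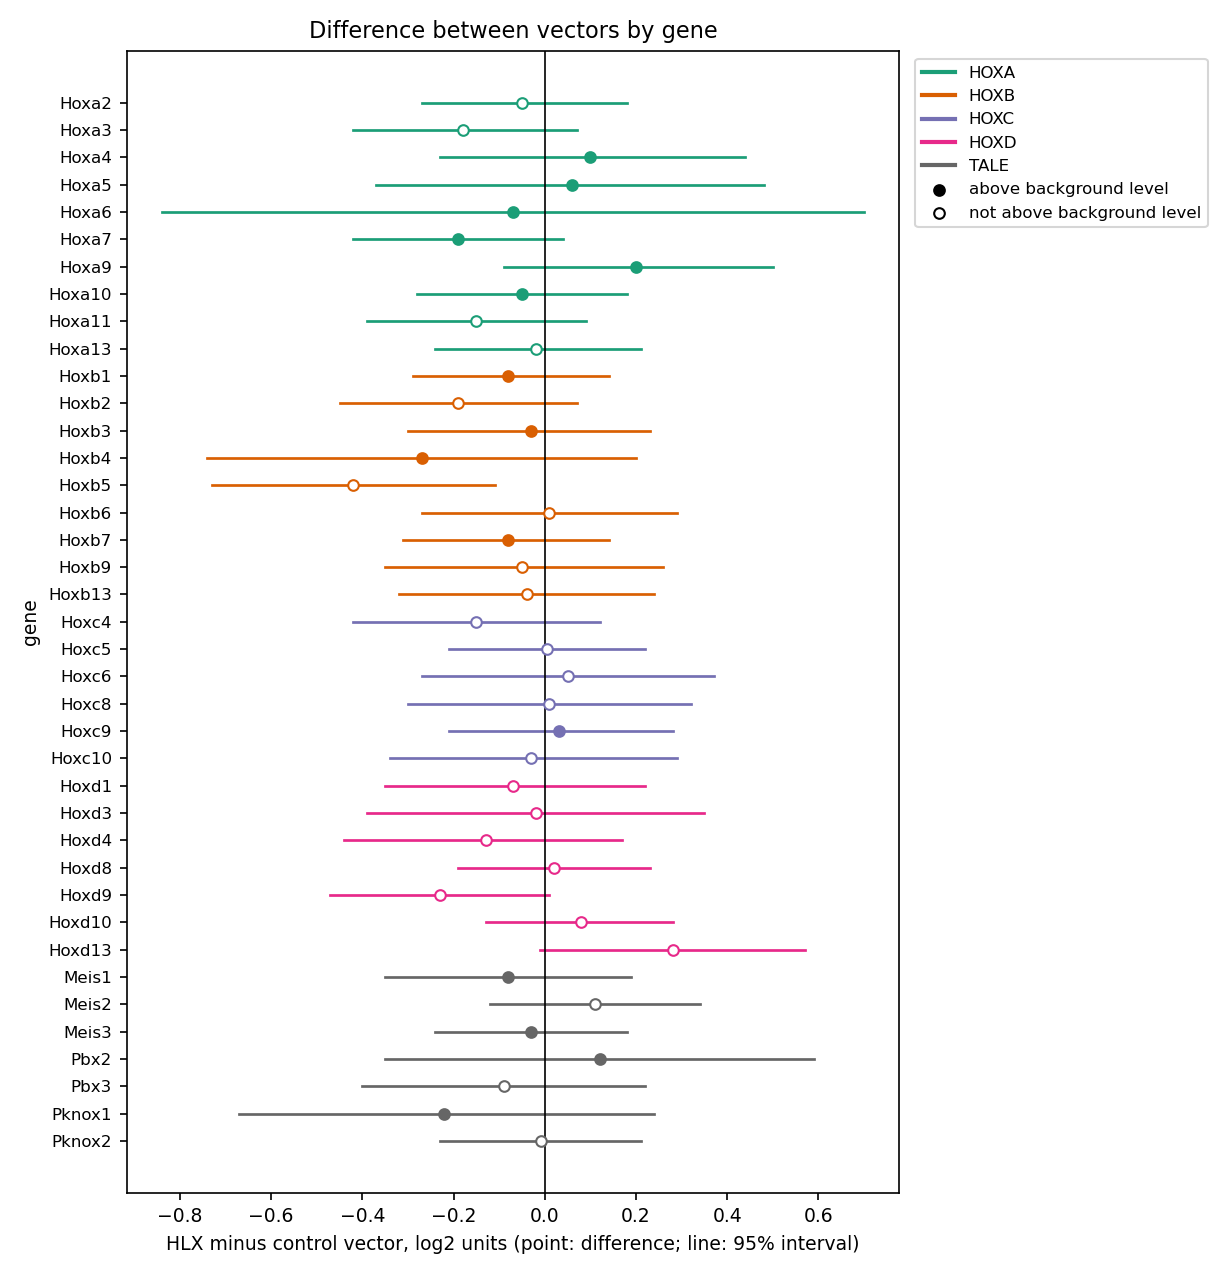
Difference between HLX and control vector in log2 units (horizontal axis) for each of 39 genes (vertical axis), with the 95% interval from limma as a line and colours for the clusters; filled points are genes above the background level. The interval of Hoxb5, -0.73 to -0.11, is the only one of the 39 that leaves out 0.

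Arrays of the same vector differed both in single genes and across the set. Mean deviations of the 6 HOXA genes above background from their own means were 0.14 on control replicate 2 and 0.16 on HLX replicate 3, but without Hoxa6, left out after the data were seen, they were 0.03 and 0.09. Hoxa9 deviated by -0.24 on control replicate 2. Of the TALE genes, Pbx2 and Pknox1 varied most and were low on HLX replicate 3, at -0.25 and -0.43. Over all 39 genes, HLX replicate 2 stood lowest, with 9 genes above their own mean, where the other arrays had 20 to 26. These are descriptions over few genes from 6 arrays, and no test was made of them.

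**Figure D4:**
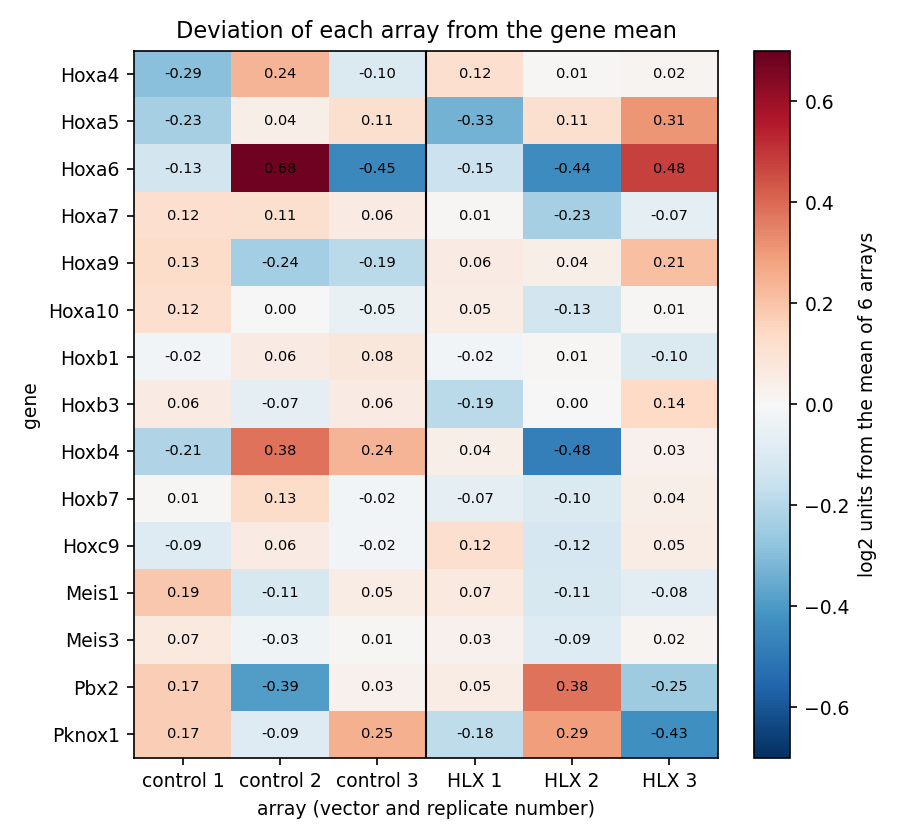
Deviation of each array (horizontal axis) from the gene's mean over 6 arrays, in log2 units, for the 15 genes above the background level (vertical axis), with red for above and blue for below the mean. Hoxa6 is high on control 2 (0.68) and HLX 3 (0.48), and Pbx2 is low on the same arrays (-0.39 and -0.25).

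Most non-coding genes inside the clusters gave little signal. Of 10 measured, 2 exceeded the background level, Mir196b and Mir615, and the groups did not overlap in 1, where 9.19% of all genes did not overlap. Mir196b, between Hoxa9 and Hoxa10, was at 6.25, 6.63 and 6.37 with control and 6.66, 6.17 and 6.61 with HLX. Mir196a-2, whose mature product has the AGGUAGU seed shown above, was the gene without overlap, at 4.69, 4.87 and 4.77 with control and 5.02, 4.92 and 5.06 with HLX (difference 0.22). Mir10a and Mir10b, the pair with the ACCCUGU seed, had levels of 2.96 to 3.41. A probeset of such a gene reads the precursor transcript, not the mature strand. Hottip, a transcript at the far end of HOXA, had a difference of -0.30 with overlap. Of 26 genes that flank the clusters, 14 were below 0, where 52.5% of all genes were. With an unadjusted p under 0.05 from limma there were 0 (0 adjusted), where 4.8% of all genes had one. The groups did not overlap in Lnpk, beside HOXD (0.37), and Evx1, beside HOXA (0.14), where 9.19% of all genes did not overlap. Evx1 lay below the background level.

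Genes that act on the HOX clusters or with their products were examined as further lists. Of 42 chromatin and upstream regulators, 28 were above 0 and 14 below, with a median difference of 0.047, and 2 had an unadjusted p under 0.05. Over all genes 52.5% were below 0 and 4.8% had such a p, a share that 2 of 42 does not exceed. The 2 genes were Mllt3, a subunit of the elongation complex that KMT2A fusions recruit to HOX loci (-0.67 ± 0.148, SE, n = 3 per group), and Kdm6a, a histone H3 lysine 27 demethylase (-0.45 ± 0.161). The next was the DNA methyltransferase gene Dnmt3a (0.29 ± 0.137), and the adjusted p from limma of these 3 was 0.859 to 1. Among 16 retinoic acid pathway genes, which control HOX clusters in embryos, 1 had an unadjusted p under 0.05, Dhrs3, a retinaldehyde reductase, at 9.05, 8.76 and 8.97 with control and 8.67, 8.62 and 8.66 with HLX. Rara, a retinoic acid receptor gene, had a difference of 0.35 ± 0.175 and Rarb, another, of -0.10 ± 0.108. Of 11 other TALE class and related genes 0 had an unadjusted p under 0.05 (0 adjusted). The smallest p were those of Tgif1, a repressor of the TALE class, at 8.85, 8.54 and 8.88 with control and 8.82, 7.70 and 7.86 with HLX, of Mkx (-0.12) and of Irx5 (-0.12).

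Genes described elsewhere as targets of HOXA9 and MEIS1 formed another list, in which several members had been seen to differ before it was drawn up. Of 30 measured, 20 were below 0, with a median of -0.070. An unadjusted p under 0.05 from limma was found for 7, 6 lower and 1 higher, beside 4.8% of all genes. Since members had been seen to differ first, this count does not test the list against all genes. The gene that was higher, Itgam, is also on the granulocyte and monocyte list. Over all genes 0 passed with an adjusted p under 0.05. Myb, needed by proliferating progenitors, was at 10.12, 10.13 and 10.22 with control and at 9.58 to 9.66 with HLX. Flt3, a receptor of multipotent progenitors and a member of the marker list of the sorted fraction, was at 9.12, 9.21 and 9.29 against 8.81, 8.57 and 8.19. The chemokine gene Ccl3 was at 7.67, 8.23 and 8.42 against 7.39, 6.84 and 6.82. Their adjusted p from limma was 0.662, 0.901 and 0.839 in that order. The genes of the regulators themselves had intervals from limma of -0.09 to 0.5 for Hoxa9 and -0.35 to 0.19 for Meis1. Each interval includes 0, which does not show that the gene was unchanged. The part of these regulators in the differences of the listed genes was not tested.

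Markers of other cells differed between some arrays. In the granulocyte and monocyte list 5 of 6 genes were above 0 and 2, both higher, had an unadjusted p under 0.05, Itgam and Csf1r, where 2.44% of all genes were higher with such a p and 52.5% were below 0. The summed linear level of that list was 289 to 312 on control arrays and 404 to 748 on HLX arrays. Csf1r was at 6.28, 6.48 and 6.37 with control and 6.49, 7.80 and 8.92 with HLX, so HLX replicate 1 lay near the control arrays. Itgam was at 6.49, 5.72 and 5.99 against 7.24, 6.91 and 6.72. The other 4 of the 6 genes, the neutrophil genes Ly6g, Ngp, S100a8 and S100a9, lay below the background level, with differences of -0.15 to 0.17. In the mast cell list the sum was 81.8 to 298 with control and 70.3 to 84.4 with HLX, with Cpa3 at 7.47 on control replicate 1 and at 4.77 to 5.10 on the others. In the megakaryocyte list, whose 3 genes were above the background level, the sum was 661 to 1990 with control and 750 to 1050 with HLX, and Pf4, a platelet chemokine gene, was highest on control replicate 1 at 10.72. The part of these cells in the difference of Hoxb5 was not tested.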

How the data were processed

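Expression was measured on 6 Affymetrix arrays from 3 ng of RNA of 5000 to 10000 sorted cells, per the labels' protocols. The authors deposited 1 value per probeset in log2 units, a scale read from the values themselves. The submitters' processing notes name RMA and, as the software, Affymetrix Power Tools 1.178. No source used here names the genome build of the probes. RMA removes shifts common to most transcripts and compresses weak signals, and probes of HOX paralogs or overlapping transcripts can share signal.

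Of 35556 probesets, 21789 had 1 gene symbol, 1621 several and 12146 none in the platform annotation; probesets with several were left out. The probeset with the highest mean was kept per gene. HLX was compared with control by limma 3.58.1 (lmFit and eBayes, 2-sided, Benjamini-Hochberg over 19938 genes, threshold 0.05) in R 4.3.3, with 4 residual degrees of freedom. The SE is the moderated one. On simulated data with 200 changed genes, an unadjusted p under 0.05 recovered 87.1% of genes changed 1.5-fold and called 5.35% of unchanged genes. The simulation drew independent noise with each gene's own SD and added the full fold, without shared array shifts or compression of weak signals. It thus gives no recovery rate for genes with weak signals, such as the 24 members not above the background level. Members and lists were chosen with earlier results of these data known, so lists are described by counts beside those of all genes. Array values are given for members above the background level, at an unadjusted p under 0.05 or without overlap, tests for the latter kinds, and from other lists up to 3 genes with the smallest p, with cluster neighbours named where arrays did not overlap. Mir196b, Mir615, Mir10a, Mir10b, Kit, Cd34, Procr, Slamf1, Col1a1, Pf4 and Cpa3 were named for context after their values were seen. Alternatives were filters, normalizations, variance priors, array weights, probeset choices, a replicate block, left-out arrays and background levels. Figures were drawn with matplotlib 3.10.9.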

Additional observations from a re-analysis of the deposited data

How the results depend on the processing

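The count of 0 genes with an adjusted p under 0.05 held in 15 of 16 alternatives, and with a trended and robust variance prior there was 1, Hlx (log2 difference 2.95, adjusted p from limma 0.0377). Members with an unadjusted p under 0.05 numbered 1 with all genes and 0 when only genes above the background level in at least 3 arrays (15 members) or above the median of all genes (14 members) were tested, since Hoxb5 is then left out. Of all genes that passed these filters, 5.38% and 5.66% had such a p. Members with one numbered 2 with median centring, repeated quantile normalization, cyclic loess, the trended prior or array weights, where 4.63% to 6.03% of all genes had one. They numbered 1 to 3 with an array left out, where 4.04% to 6.36% of all genes had one. Hoxb5 kept an unadjusted p between 0.0098 and 0.0438 in the 14 alternatives that tested it, and Hoxa7, Hoxb2, Hoxb5, Hoxd9 and Hoxd13 kept their direction in each alternative that tested them. Under either filter 1 member was without overlap and 10 were lower, since fewer members were tested. Of all genes that passed the filters, 9.93% and 10.3% were without overlap. With an array left out 6 to 11 members were without overlap, where 16.7% to 24.1% of all genes were. Members lower with HLX then numbered 20 to 30, while the median difference over all genes ran from -0.029 to 0.008. The median of HOXB stayed between -0.125 and -0.053, while that of HOXD ran from -0.132 to 0.061 with an array left out, that of HOXC from -0.031 to 0.077, and that of HOXA was 0.002 under either filter. Median centring turned the split of all genes with an unadjusted p under 0.05 from 471 lower and 487 higher to 376 lower and 612 higher, and 23 members stayed below 0. Correlations of deviations were 0.200, 0.00854 and 0.143 for same-numbered arrays and -0.225 to 0.105 for different-numbered arrays. These few values do not settle whether replicate numbers pair the arrays. With the replicate block 1 member had an unadjusted p under 0.05, where 6.04% of all genes did. The difference of Hoxb5 was then -0.42. The number of members above background was 12 to 21 over the levels tried. The number of arrays, 3 a group, limits the precision.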
